A study of Mus musculus with 12 samples.

Results

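Of 12 mouse iris arrays, 3 carried a strong signal of Krt12, the keratin that marks the epithelium of the cornea, and these 3 arrays are set here against the 6 other arrays of the same strains. An array counted as Krt12-high where the log2 value of Krt12 was 10 or above, read from the Krt12 probe set with the highest mean. The Krt12-high arrays were C57BL/6J replicate 1, B6-albino replicate 1 and B6-D2 congenic replicate 2, so each of 3 strains held 1 Krt12-high and 2 Krt12-low arrays. The 3 arrays of the remaining strain, B6-Lyst, were all below the limit and are given as levels only. Because measured values chose the arrays, every difference between them is a description, with no test and no p-value.

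Each array measured RNA from the irides of mice aged 60 days, with the 4 eyes of 2 animals pooled. C57BL/6J is the inbred strain without the pigment mutations. B6-albino (B6-(Cg)TyrC-2J in the labels) carries a mutation of Tyr, B6-Lyst (B6-Lystbg-J) carries one of Lyst, and B6-D2 congenic (B6.D2(Tryp1-Gpnmb-)/SJ) carries mutations of Tyrp1 and Gpnmb. No Cre, transgene or treatment is named. A sample is a pool of 2 animals, so values of single animals are not known.

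The corneal epithelium is a stratified sheet on the front of the eye, separated from the iris by the corneal stroma, the corneal endothelium and the aqueous humour. Its cells assemble keratin filaments from Krt12 and Krt5, tie them to their neighbours through desmosomes and to the basement membrane through hemidesmosomes, and cover their outermost layer with membrane mucins. The iris itself consists of stroma, vessels, the sphincter and dilator muscles and a pigmented epithelium at its back.

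Values are the deposited log2 values, 1 per probe set and array, and a gene is read from its probe set with the highest mean over the 12 arrays, which gave 18193 genes. A difference is the Krt12-high array minus the mean of the 2 other arrays of its strain, on the log2 scale, and its mean ± SD runs over the 3 strains. A gene is called higher in a strain where the Krt12-high array lay at least 2-fold (1 log2 unit) above both other arrays, and lower where it lay at least 2-fold below both. Correlations between arrays of a strain, across probe sets and therefore not over independent points, ran from 0.9726 to 0.992. The files give no detection calls. Values near 4 or 5 are therefore not shown to lie above background, and differences measured from them may be understated.

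The start regions of the 3 genes that were called higher in all 3 strains are shown first, because the description opens with them. They are the 250 bases before the RefSeq transcript start on assembly GRCm38.p6, which is the build of the sequence table and not one named by the array files. Each is written 5′ to 3′ on the strand of its gene, with matches to the searched letters in capitals. The Krt12 region is chr11:99422260-99422509 on the minus strand, the Krt5 region chr15:101712906-101713155 on the minus strand, and the Dsp region chr13:38151044-38151293 on the plus strand.
Krt12: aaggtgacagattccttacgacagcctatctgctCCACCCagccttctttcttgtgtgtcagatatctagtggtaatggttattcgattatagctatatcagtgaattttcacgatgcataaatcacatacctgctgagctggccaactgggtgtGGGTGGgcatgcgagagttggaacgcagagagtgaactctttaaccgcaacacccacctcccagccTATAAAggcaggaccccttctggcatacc
Krt5: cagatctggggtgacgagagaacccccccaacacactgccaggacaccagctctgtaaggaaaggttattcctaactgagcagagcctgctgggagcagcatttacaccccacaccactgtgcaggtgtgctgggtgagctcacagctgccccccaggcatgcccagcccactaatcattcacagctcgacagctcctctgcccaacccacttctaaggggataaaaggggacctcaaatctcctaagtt
Dsp: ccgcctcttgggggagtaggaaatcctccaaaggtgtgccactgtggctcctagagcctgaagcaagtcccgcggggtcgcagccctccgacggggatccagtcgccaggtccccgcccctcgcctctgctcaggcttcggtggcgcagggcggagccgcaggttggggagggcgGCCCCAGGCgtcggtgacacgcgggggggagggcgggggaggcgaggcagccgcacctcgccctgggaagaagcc
In the Krt12 region the capitals mark CCACCC at bases 216 to 211 before the start, its reverse complement GGGTGG at bases 95 to 90, and TATAAA at bases 29 to 24. In the Dsp region they mark GCCCCAGGC at bases 75 to 67. None of the letters searched occurred in the Krt5 region. The searches covered both strands with the TATA box letters TATAAA, the AP-1 letters TGANTCA, the KLF letters CCACCC, the ETS letters AGGAAG, the grainyhead letters ACCGG and the TFAP2 letters GCCNNNGGC. Over 27025 promoters of this length in the table, the KLF letters occurred in 27.68%, the TATA box letters in 12.97% and the TFAP2 letters in 13.56%. The shares were 29.15% for the ETS letters, 19.73% for the grainyhead letters and 6.87% for the AP-1 letters. Of the 27 genes described below, 19 had a promoter in the table, and 8 of these held the KLF letters, 4 the TATA box letters and 3 the TFAP2 letters. The ETS letters occurred in 5 of the 19, the grainyhead letters in 3 and the AP-1 letters in 2. A match of letters describes the sequence and says nothing of a factor being bound there.

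Krt12 itself read 12.86 on C57BL/6J replicate 1 against 6.66 and 6.26 on replicates 2 and 3. It read 10.45 on B6-albino replicate 1 against 6.75 and 7.12, and 13.81 on B6-D2 congenic replicate 2 against 6.15 on replicate 1 and 6.84 on replicate 3. The B6-Lyst arrays read 6.06, 6.32 and 5.96. The split therefore ran through an empty stretch of the scale: 10.45 was the lowest value inside the limit and 7.12 the highest outside it, and both belonged to B6-albino. The differences were 6.40 in C57BL/6J (84.4-fold), 3.51 in B6-albino (11.4-fold) and 7.31 in B6-D2 congenic (159-fold), with a mean of 5.74 ± 1.98 (SD, n = 3 strains). The other Krt12 probe set gave the same split, with 12.54, 9.13 and 14.08 on the Krt12-high arrays and values between 4.74 and 5.53 on the other 9.

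Krt5, the partner keratin of Krt12 and a keratin of basal epithelial cells generally, read 11.20 on C57BL/6J replicate 1 against 7.29 and 6.40. It read 8.06 on B6-albino replicate 1 against 6.16 and 6.34, and 13.11 on B6-D2 congenic replicate 2 against 6.02 on each of the other arrays. Its 3 Krt12-high values lay above all 9 other arrays, which reached 7.29. The differences were 4.36, 1.81 and 7.09 in the same order of strains, with a mean of 4.42 ± 2.64 (SD, n = 3 strains).

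Dsp encodes desmoplakin, which anchors keratin filaments to desmosomes. It read 9.99 on C57BL/6J replicate 1 against 7.05 and 5.89, 7.76 on B6-albino replicate 1 against 6.35 and 6.30, and 12.24 on B6-D2 congenic replicate 2 against 5.89 and 6.19. The differences were 3.51, 1.43 and 6.20, with a mean of 3.71 ± 2.39 (SD, n = 3 strains). As for the keratins, the order of size was B6-D2 congenic, C57BL/6J, B6-albino. B6-Lyst replicate 2, at 6.76, lay above the other B6-Lyst arrays at 5.20 and 5.33. Another Dsp probe set read 9.44, 6.93 and 12.26 on the Krt12-high arrays and at most 5.68 on the others, whereas a different one stayed between 4.76 and 5.20 on all 12 arrays.

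**Figure D1:**
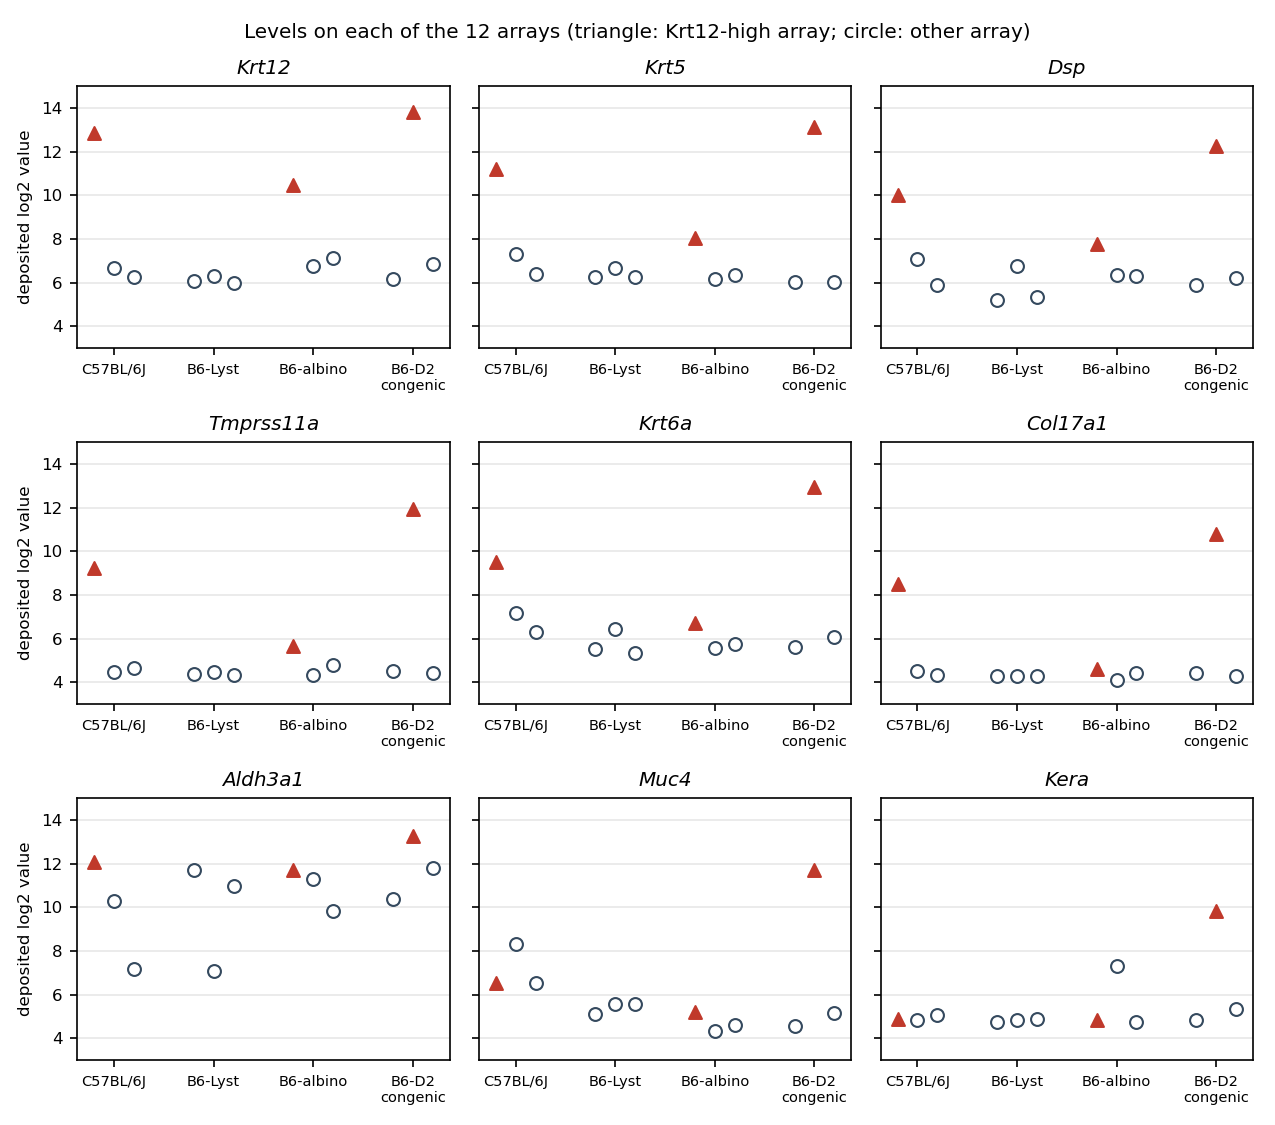
Deposited log2 values (vertical axis) of 9 genes on each of the 12 arrays, by strain (horizontal axis), with triangles for the Krt12-high arrays and open circles for the others. Krt12, Krt5 and Dsp stand high on all 3 Krt12-high arrays, Tmprss11a, Krt6a and Col17a1 mainly on those of C57BL/6J and B6-D2 congenic, Aldh3a1 is also high on Krt12-low arrays, and Muc4 and Kera stand highest on B6-D2 congenic replicate 2 (11.70 and 9.81).

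Krt12, Krt5 and Dsp were the 3 genes of 18193 (0.0165%) called higher in all 3 strains, and 0 genes (0%) were called lower in all 3. The B6-albino difference, as a share of the gene's mean difference, was 0.612 for Krt12, 0.409 for Krt5 and 0.384 for Dsp. Within single strains the counts differed widely. In B6-D2 congenic, 228 genes (1.25%) were higher and 1 (0.0055%) was lower. In C57BL/6J, 92 genes (0.506%) were higher and 19 (0.104%) lower, and in B6-albino 8 genes (0.044%) were higher and 1 (0.0055%) lower. Of the C57BL/6J calls, 8 had a difference of 3 log2 units or more, against 66 of the B6-D2 congenic calls.

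The counts changed with scaling and with the arrays left out. Scaling each array to the same 75th percentile moved the median difference of all genes by -0.11 in C57BL/6J and left 55 calls there, quantile normalization left 51, and leaving out C57BL/6J replicate 2 raised the count to 784. Without B6-albino replicate 2 or 3, the B6-albino count was 57 or 128, and the count in all 3 strains was 5 each time. Without B6-D2 congenic replicate 1 or 3, the B6-D2 congenic count was 288 or 315 in place of 228. Since the call is made against the highest other array, leaving out a Krt12-low array can only keep or raise a count of higher genes. These rises are therefore no sign that a count rested on 1 array. Across genes, which are not independent, the differences of C57BL/6J and B6-D2 congenic had a Pearson correlation of 0.105. The 2 strains share no arrays in this comparison.

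The calls in common were 27 genes (0.148% of 18193) higher in both C57BL/6J and B6-D2 congenic, against 0 (0%) called lower in both. They made up 29.3% of the C57BL/6J calls and 11.8% of the B6-D2 congenic calls. All 27 read higher on B6-D2 congenic replicate 2 than on C57BL/6J replicate 1. On B6-albino replicate 1, 21 of the 27 lay above both other B6-albino arrays, as did 28.3% of all genes. Of the 27, 12 were on the epithelial lists described below, and the other 15 are named because of their values. A mean over the 12 arrays below 5.653, the 40th percentile of probe sets, was found for 7 of the 27, and a filter at that value left 20 of the 27. They kept their call under quantile normalization in 25 of 27 cases and after 75th percentile scaling in 22.

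**Figure D2:**
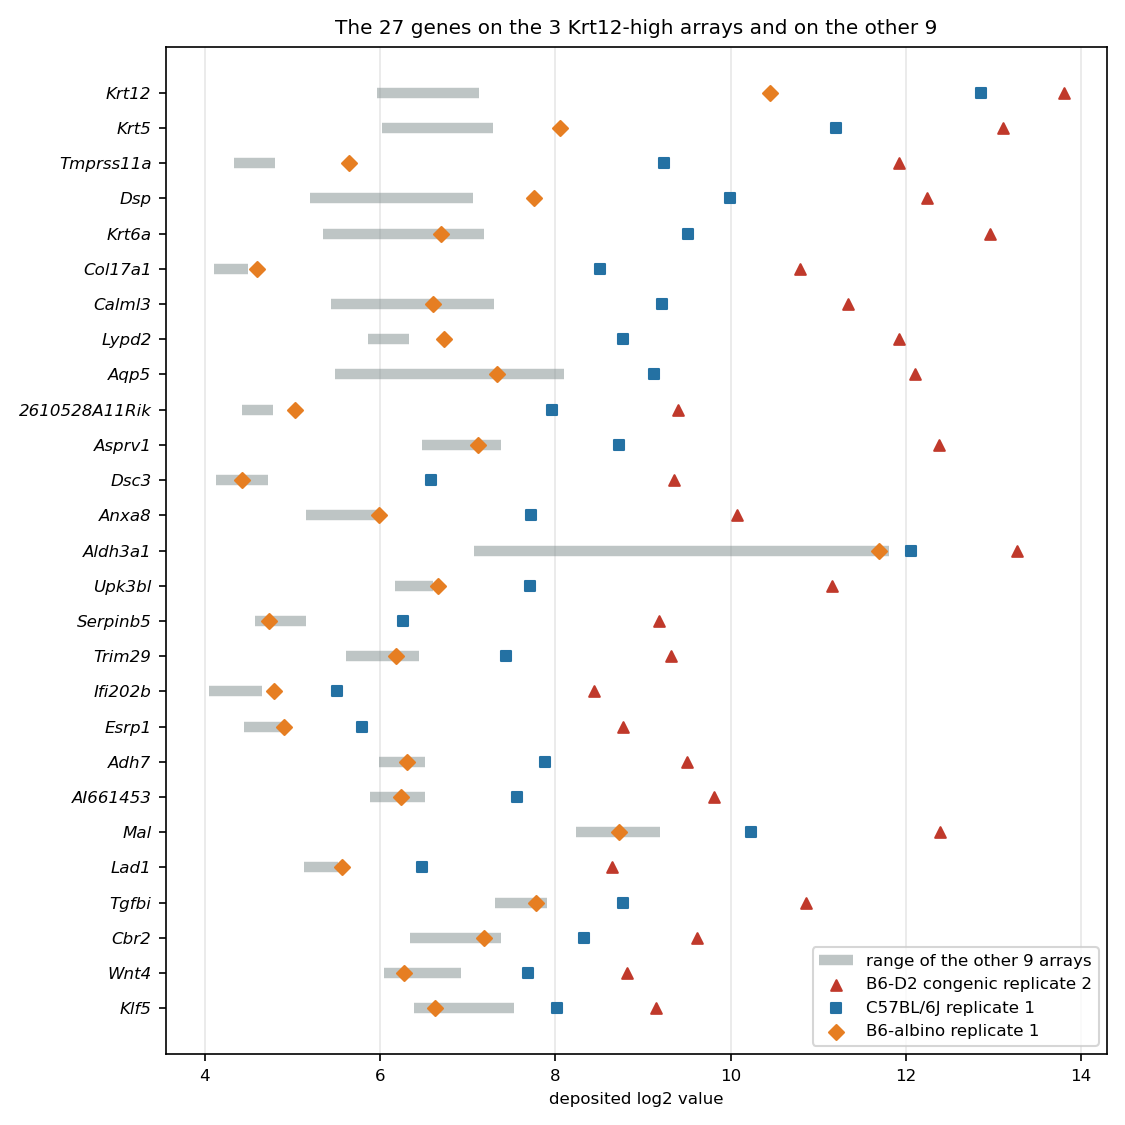
Deposited log2 values (horizontal axis) of the 27 genes called higher in C57BL/6J and B6-D2 congenic, with a marker for each Krt12-high array and a grey bar for the range of the other 9 arrays. All 27 read highest on B6-D2 congenic replicate 2, the C57BL/6J markers come next, and the B6-albino markers stand clear of the bar for Krt12, Krt5, Dsp and Tmprss11a but within or near it for most others.

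Krt6a, a keratin of stratified epithelia, was the remaining keratin among the 27. It read 9.52, 7.19 and 6.28 on C57BL/6J replicates 1 to 3, 6.69, 5.59 and 5.76 on the B6-albino arrays, and 5.59, 12.96 and 6.06 on the B6-D2 congenic arrays. The B6-albino difference of 1.02 was measured against the mean of the other arrays, and its gap to the higher of them was under 1, so the gene was not called there. Of 20 measured epithelial keratins, 10 were higher in B6-D2 congenic, 3 in C57BL/6J and 2 in B6-albino. Over all genes the shares called higher in these strains were 1.25%, 0.506% and 0.044%, and each list count below is to be read against them. Krt6b, at 13.29 on B6-D2 congenic replicate 2 against 6.74 and 6.85, read 9.76 on C57BL/6J replicate 1 but also 8.99 on replicate 2, which was Krt12-low. Krt13, Krt78 and Krt80, keratins of other stratified epithelia, had B6-D2 congenic differences of 2.92, 2.60 and 2.00 and C57BL/6J differences of 0.60, 0.22 and -0.20.

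Krt14, the usual partner of Krt5 in basal epidermal cells, was called in B6-D2 congenic alone, where the call is not shown to differ from the other strains. It read 5.91 on C57BL/6J replicate 1, 5.24 on B6-albino replicate 1 and 6.86 on B6-D2 congenic replicate 2, against 4.94 to 5.42 on the other 9 arrays. Krt15, a keratin of limbal and basal cells, read 7.78 on C57BL/6J replicate 1 and 7.52 on B6-D2 congenic replicate 2, with 7.18 on C57BL/6J replicate 2. Krt8 and Krt18, the pair of simple epithelia, were not higher in any of the 3 strains, with mean differences of -0.34 and -0.36.

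Col17a1, the transmembrane collagen of hemidesmosomes, stood apart on both arrays. It read 8.51 on C57BL/6J replicate 1 against 4.49 and 4.31, and 10.79 on B6-D2 congenic replicate 2 against 4.40 and 4.28, differences of 4.11 and 6.45. On B6-albino replicate 1 it read 4.60 against 4.11 and 4.44, a difference of 0.32 where Krt12 had one of 3.51. The B6-Lyst arrays lay between 4.27 and 4.30. Itgb4, the integrin chain of the same structure, was called in C57BL/6J, at 7.12 against 6.07 on both other arrays, and read 6.76 against 6.20 and 5.84 in B6-D2 congenic; the difference between strains was not tested. Among 15 measured genes of basal and limbal epithelium, 5 were higher in B6-D2 congenic, 3 in C57BL/6J and 1 in B6-albino. Trp63, the regulator of basal stratified epithelium, was one of the 5, with a difference of 1.39.

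The desmosome list gave 9 of 13 measured members higher in B6-D2 congenic, 2 in C57BL/6J and 1 in B6-albino. Dsc3, a desmosomal cadherin of stratified epithelia, read 6.58 on C57BL/6J replicate 1 against 4.37 and 4.31, 4.42 on B6-albino replicate 1 against 4.18 and 4.72, and 9.35 on B6-D2 congenic replicate 2 against 4.43 and 4.60. The B6-albino value thus lay between the other arrays of its strain. A second Dsc3 probe set had differences of -0.05, 0.21 and -0.14 in C57BL/6J, B6-albino and B6-D2 congenic, so the call of this gene holds for 1 of its 2 probe sets. The plaque proteins Pkp1 and Pkp3 and the linker proteins Evpl and Ppl were higher in B6-D2 congenic, with differences of 3.42, 2.14, 3.25 and 1.89. In C57BL/6J the same genes differed by 0.70, 0.25, 1.03 and -0.14. Dsg2 and Pkp2, desmosome genes of simple epithelia and of many other tissues, were not called in any strain and had mean differences of -0.10 and -0.06.

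**Figure D3:**
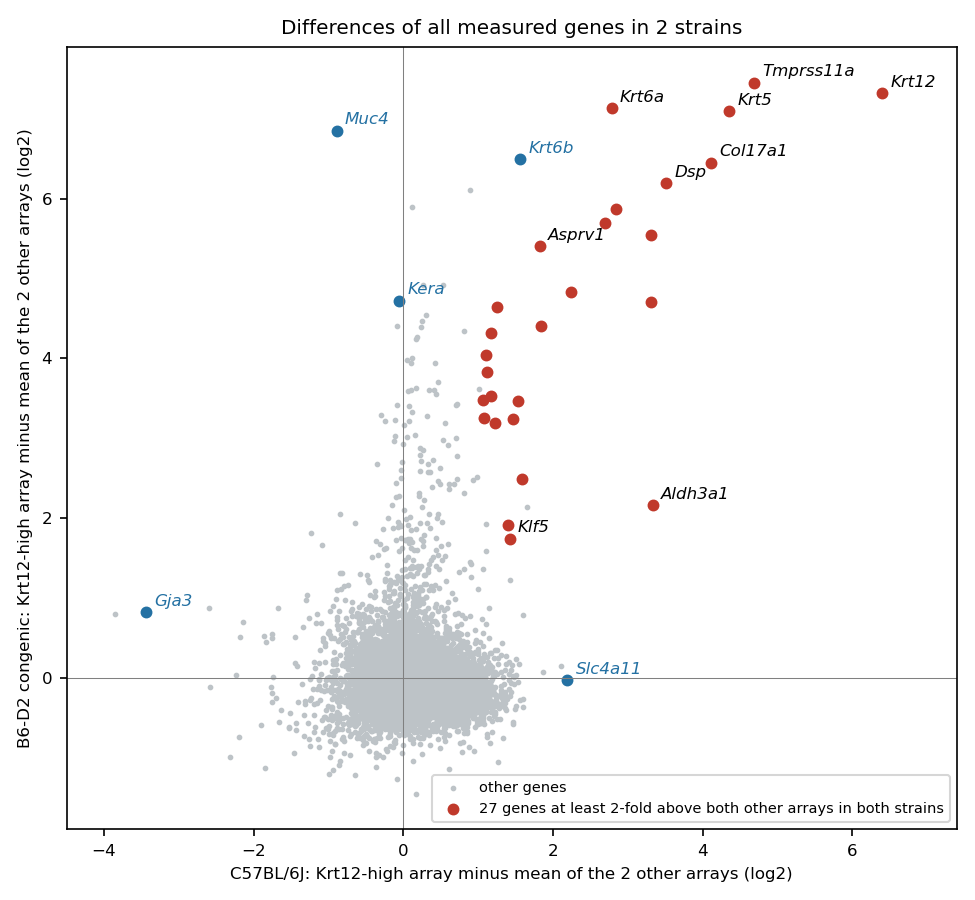
Differences of all 18193 genes on the log2 scale, Krt12-high array minus the mean of the 2 other arrays, in C57BL/6J (horizontal axis) and B6-D2 congenic (vertical axis); red points are the 27 genes called higher in both and blue points are named genes outside them. The red points include Klf5 at 1.42 and 1.75 and Krt12 at 6.40 and 7.31, Muc4, Krt6b and Kera stand high for B6-D2 congenic, Slc4a11 lies to the right at 2.19, and Gja3 to the left at -3.44.

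Tmprss11a, a transmembrane serine protease, read 9.24 on C57BL/6J replicate 1 against 4.49 and 4.63, and 11.92 on B6-D2 congenic replicate 2 against 4.50 and 4.44. On B6-albino replicate 1 it read 5.65 against 4.33 and 4.80, short of the 2-fold call. Its differences were 4.68, 1.08 and 7.45, measured from low arrays that are not shown to lie above background. Lypd2, of the Ly6 family, read 8.77, 6.73 and 11.92 on the Krt12-high arrays of C57BL/6J, B6-albino and B6-D2 congenic, against 5.86 to 6.32 on the other 9. Serpinb5 (maspin), a serpin of epithelial cells, read 6.26, 4.73 and 9.18 in that order, against 4.57 to 5.16. Of 15 measured epithelial proteases and inhibitors, 5 were higher in B6-D2 congenic, 1 in C57BL/6J and 0 in B6-albino, against 1.25%, 0.506% and 0.044% of all genes. Prss22, Prss8, Spint1 and St14, 3 membrane-linked or secreted serine proteases and an inhibitor of such enzymes, had B6-D2 congenic differences of 3.16, 2.85, 2.80 and 1.91 and C57BL/6J differences between 0.01 and 0.26.

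Membrane mucins separated the Krt12-high arrays from each other. Muc4, a mucin of the ocular surface, read 11.70 on B6-D2 congenic replicate 2 against 4.55 and 5.16. On C57BL/6J replicate 1 it read 6.52, below Krt12-low replicate 2 at 8.32 and level with replicate 3 at 6.51. B6-albino replicate 1 read 5.20 against 4.35 and 4.63. Another Muc4 probe set was also called in B6-D2 congenic, with a difference of 3.06, but read 4.71 on C57BL/6J replicate 2. A different one was called in no strain, with differences of -0.09 in C57BL/6J and -0.08 in B6-D2 congenic. The high value on C57BL/6J replicate 2 therefore holds for 1 probe set. Of 7 measured genes of surface mucins and glycocalyx, 4 were higher in B6-D2 congenic (Muc4, Muc15, Muc20 and Lgals3) and 0 in the other strains. Muc16, another ocular surface mucin, stayed between 4.39 and 4.78 on all 12 arrays.

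Aqp5, the water channel of the corneal epithelium and of exocrine glands, read 9.12 on C57BL/6J replicate 1 against 6.05 and 5.57 and 12.10 on B6-D2 congenic replicate 2 against 6.27 and 6.85. In B6-albino the Krt12-high array, at 7.33, lay between replicate 2 at 6.39 and replicate 3 at 8.09. Of 11 measured genes of epithelial transport, Aqp5 was the one called in C57BL/6J, and Aqp5 and Slc6a14 were called in B6-D2 congenic. The shares of all genes called higher there were 0.506% and 1.25%. The epithelial sodium channel genes Scnn1a, Scnn1b and Scnn1g were not called in any strain.

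Aldh3a1, an aldehyde dehydrogenase that is among the most abundant proteins of the corneal epithelium, met the call in C57BL/6J and B6-D2 congenic but was not confined to the Krt12-high arrays. It read 12.06, 10.28 and 7.18 on C57BL/6J replicates 1 to 3, 11.69, 11.28 and 9.84 on the B6-albino arrays, and 10.39, 13.27 and 11.80 on the B6-D2 congenic arrays. The B6-Lyst arrays, with Krt12 between 5.96 and 6.32, read 11.69, 7.07 and 10.97. Over the 9 arrays that were not Krt12-high, it ranged from 7.07 to 11.80. The lens gene Gja3, a connexin of lens fibre cells, was also low on C57BL/6J replicate 3 at 5.80 and on B6-Lyst replicate 2 at 3.70, where Aldh3a1 had its 2 lowest values, but read 3.96 on C57BL/6J replicate 1. What part lens tissue had in the Aldh3a1 values was not tested.

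Other enzymes of the ocular surface were among the 27 or near them. Adh7, an alcohol dehydrogenase that oxidizes retinol, read 7.88, 6.31 and 9.50 on the Krt12-high arrays of C57BL/6J, B6-albino and B6-D2 congenic, against 5.99 to 6.51 on the other 9. Cbr2, a carbonyl reductase, read 8.33, 7.19 and 9.61, against 6.34 to 7.37. The glutathione transferases Gsto1 and Gsta4 were higher in B6-D2 congenic by 2.48 and 1.43, and differed by 0.93 and 0.90 in C57BL/6J, where they were not called. Tkt, the transketolase that is abundant in the cornea, read 13.19, 13.69 and 13.56 on the Krt12-high arrays and 12.52 to 13.41 on the others, and its mean difference was 0.42 ± 0.06 (SD, n = 3 strains). The glycolysis and pentose phosphate list had 0 of 16 measured members called in any strain.

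The epithelial transcription factors gave 1 call outside B6-D2 congenic. Klf5, a zinc finger factor of epithelial proliferation, was called in C57BL/6J, at 8.02 against 6.81 and 6.39. It read 9.15 on B6-D2 congenic replicate 2 against 7.34 and 7.46, and 6.62 on B6-albino replicate 1 against 6.99 and 6.61. The B6-Lyst arrays read 7.48, 7.53 and 6.77, the first pair above all 6 Krt12-low arrays of the split, which ran from 6.39 to 7.46. Another Klf5 probe set was called in B6-D2 congenic, with a difference of 1.82, but not in C57BL/6J, with one of 0.67. A different one had differences of -0.31 in C57BL/6J and -0.03 in B6-D2 congenic, so the C57BL/6J call holds for 1 probe set. Of 16 measured factors, 8 were called in B6-D2 congenic: Klf4, Klf5, Elf3, Grhl2, Grhl3, Zfp750, Trp63 and Tfap2c. Klf4, a regulator of corneal epithelial differentiation, read 11.53 there against 8.67 and 8.82. Pax6, which the iris epithelium expresses as well as the cornea, was not called in any strain and lay between 10.58 and 11.36 on all 12 arrays.

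Wnt4, a secreted signalling ligand, read 7.69 on C57BL/6J replicate 1 against 6.54 and 6.04 and 8.81 on B6-D2 congenic replicate 2 against 6.87 and 6.92. On B6-albino replicate 1 it read 6.28, between 6.78 and 6.13. Another Wnt4 probe set was called in no strain, with differences of 0.66 in C57BL/6J and 1.04 in B6-D2 congenic. Of 9 measured ErbB receptors and ligands, 3 were higher in B6-D2 congenic and 0 in the other strains: the ligands Ereg, Epgn and Hbegf, with differences of 3.02, 1.86 and 1.54. Tgfbi, an extracellular matrix protein that is mutated in corneal dystrophies, read 8.77, 7.78 and 10.86 on the Krt12-high arrays, against 7.31 to 7.90 on the others. Esrp1, a splicing regulator of epithelial cells, read 5.80, 4.90 and 8.77, against 4.44 to 4.90. The remaining genes of the 27, Calml3, 2610528A11Rik, Asprv1, Anxa8, Upk3bl, Trim29, Ifi202b, AI661453, Mal and Lad1, had C57BL/6J differences from 1.06 to 3.32 and B6-D2 congenic differences from 3.19 to 5.87.

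**Figure D4:**
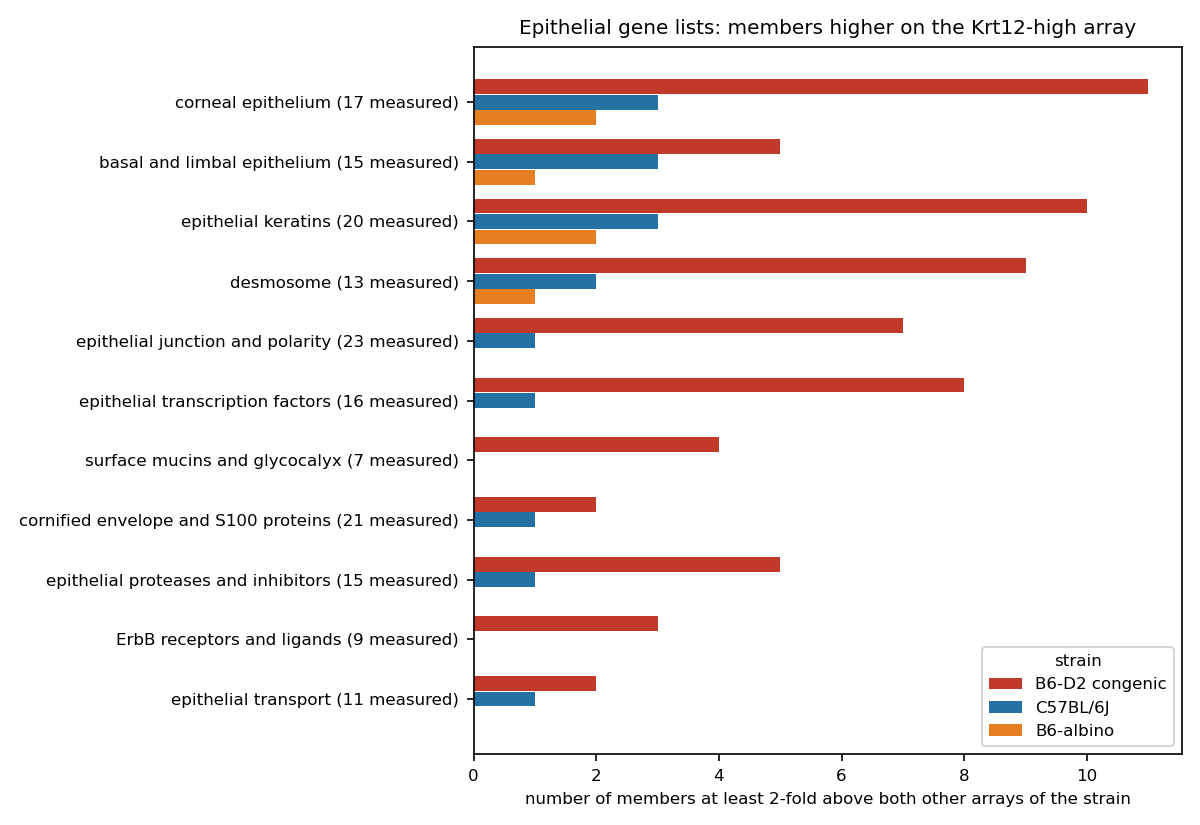
Number of members (horizontal axis) of each of 11 epithelial gene lists that lay at least 2-fold above both other arrays of the strain on the Krt12-high array, by strain. In each list the B6-D2 congenic bar is the longest, from 2 members of epithelial transport to 11 of 17 of the corneal epithelium list, and B6-albino has a bar in 4 lists.

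Over all 11 epithelial lists, 56 of 155 measured genes were higher in B6-D2 congenic, 13 in C57BL/6J, and 3 in B6-albino. Another count, of genes higher in both C57BL/6J and B6-D2 congenic, was 12. The shares of all genes were 1.25%, 0.506%, 0.044% and 0.148% in the same order. Lower calls numbered 0 in each strain. On the corneal epithelium list, 17 of 18 genes were measured, and 11 were higher in B6-D2 congenic, 3 in C57BL/6J and 2 in B6-albino. Their median difference was 1.96, 0.42 and 0.26 in these strains, against -0.05, 0.04 and 0.02 over all genes. The arrays were picked by a member of this list, so these counts are no evidence about it. Ly6d, Fabp5, Sfn and Ehf were not called in any strain on the probe sets used. Fabp5 read 10.66 on C57BL/6J replicate 1, close to Krt12-low replicate 3 at 10.74 and below replicate 2 at 12.82. For Ehf and Upk1b the probe sets disagreed. Another Ehf probe set read 8.25 on B6-D2 congenic replicate 2 against 4.07 and 4.16, and another Upk1b probe set read 6.78 on C57BL/6J replicate 1 against 5.59 and 5.25 and 10.26 on B6-D2 congenic replicate 2 against 5.05 and 5.06.

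Of 13 measured genes of epidermis and hair, 0 were called in any strain. Of 14 genes of conjunctiva and goblet cells, 2 were called in B6-D2 congenic, the keratins Krt13 and Krt7, and 0 in the others. Against the 1.25% of all genes called in B6-D2 congenic, lists of this size say little. Of 21 measured genes of the cornified envelope and the S100 family, 1 was called in C57BL/6J (Anxa8) and 2 in B6-D2 congenic (Anxa8 and S100a14). Ivl and Flg, which encode involucrin and filaggrin, stayed between 4.58 and 5.08 and between 3.46 and 3.70 on the 12 arrays.

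Beyond the 27 genes, B6-D2 congenic replicate 2 carried 201 calls that C57BL/6J replicate 1 did not. Those with the largest differences, named because of their values, included Pof1b (6.11), Lce3a (5.90), Csta1 (4.92), Plac8 (4.55) and H60c (4.47), beside the list members Muc4 (6.85), Krt6b (6.49) and Lypd3 (4.92). Kera, the keratan sulfate proteoglycan of corneal keratocytes, was among them at 9.81 against 4.83 and 5.34. Kera read 4.88 on C57BL/6J replicate 1 and 4.84 on B6-albino replicate 1, and its second highest value, 7.32, was on Krt12-low B6-albino replicate 2. Angptl7, also of the corneal stroma, read 7.48 on B6-D2 congenic replicate 2 and 5.34 to 5.99 on the other 11 arrays. Of 12 keratocyte genes, these 2 were called in B6-D2 congenic, as were 1.25% of all genes, and 0 in the other strains.

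C57BL/6J replicate 1 carried 65 calls that B6-D2 congenic replicate 2 did not. The corneal endothelium genes Slc4a11, a transporter, and Col8a2, a collagen of Descemet's membrane, read 11.12 and 10.22 there, against 9.34 and 8.65 on replicate 2 and 8.51 and 8.60 on replicate 3. B6-albino replicate 2 reached 10.93 and 10.05 with Krt12 at 6.75. Over the 8 measured genes of this list, 4 had a C57BL/6J difference above 0, with a median of 0.12, and under quantile normalization 3 did, with a median of -0.23. Of 11 smooth muscle genes, 5 were called higher in C57BL/6J, as were 0.506% of all genes, and 0 in the other strains. The 5 were Myh11, Cnn1, Des, Smtn and Actg2. Their number fell to 3 after 75th percentile scaling and to 1 after quantile normalization, with the list's median difference at 1.18, 1.07 and 0.91. All 13 measured melanosome genes, and 43.8% of all genes, read higher on C57BL/6J replicate 1 than on both other C57BL/6J arrays, with a median difference of 0.78 and 0 calls; under quantile normalization 11 of the 13 differences were above 0. C57BL/6J replicate 3 differed from the other arrays in a sign of RNA quality, since its actin 3′ minus 5′ probe set difference was 4.30 against 1.84 to 2.72 on the other 11. The part of that array in these counts was not tested beyond leaving it out, which gave 121 calls in C57BL/6J. Leaving out a Krt12-low array can only keep or raise this count.

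The 19 genes lower on C57BL/6J replicate 1 included Gja3, at 3.96 against 8.98 and 5.80. The lens list had a median difference of -0.51 in C57BL/6J, which turned to 0.85 without replicate 2. Of the 8 retinal pigment epithelium genes, 1 was called on B6-albino replicate 1, and the median difference was 0.55. The list's mean there was 9.65, against 9.10 on Krt12-low replicate 3 of that strain and 9.02 on B6-D2 congenic replicate 3. Rgr, a retinal pigment epithelium opsin, read 11.11 there against 8.20 and 9.94 and was 1 of its 8 calls. Rpe65 and Lrat, visual cycle enzymes of the same cells, read 10.17 and 9.67 against 7.23 and 6.85 on replicate 2 and 9.21 and 8.67 on replicate 3. The other calls were Pon1, Trappc3, Clic1 and Wdpcp, with differences from 1.03 to 2.07, all named because of their values.

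**Figure D5:**
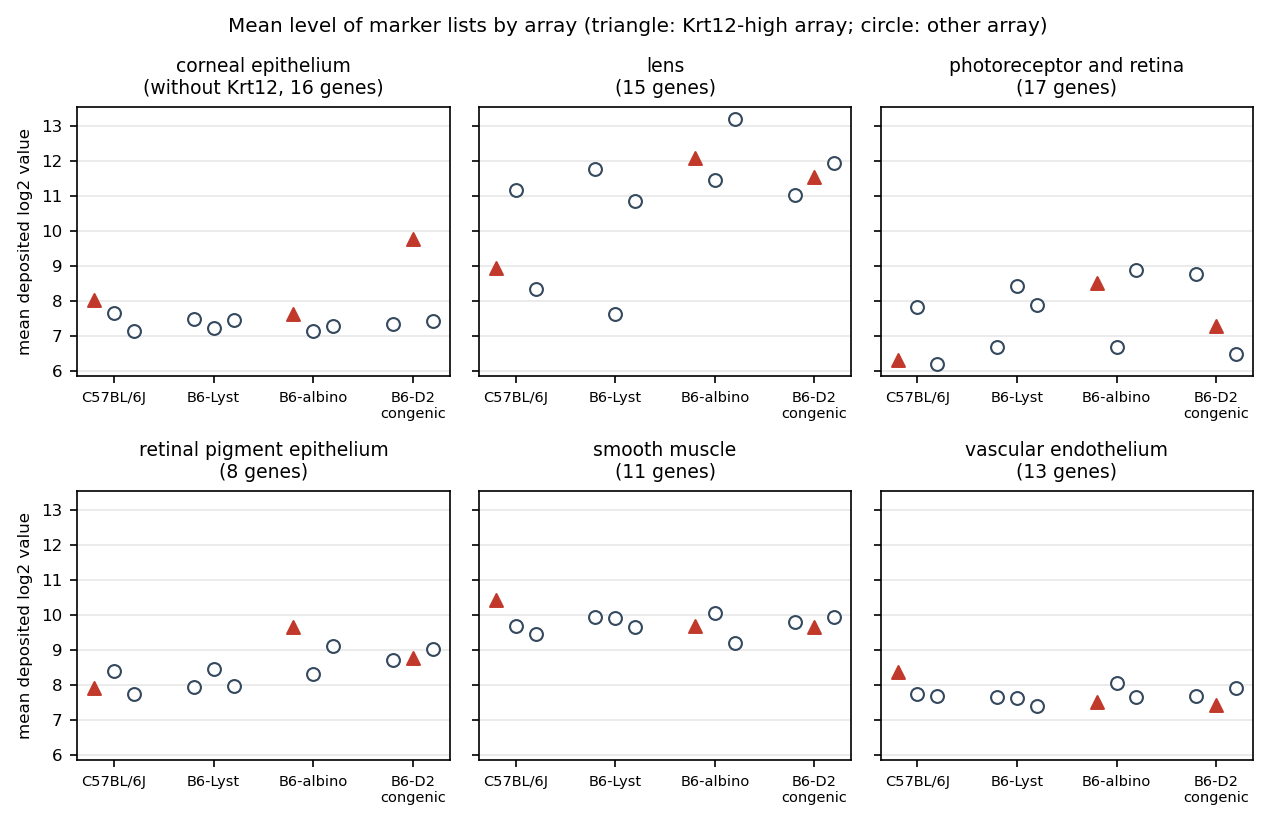
Mean deposited log2 value (vertical axis) of the measured members of 6 marker lists on each of the 12 arrays, by strain, with triangles for the Krt12-high arrays. The corneal epithelium mean, taken without Krt12, was 9.77 on B6-D2 congenic replicate 2, 8.03 on C57BL/6J replicate 1 and 7.63 on B6-albino replicate 1, the last within the 7.14 to 7.66 of the other 9 arrays, while the lens and retina means varied among the Krt12-low arrays too.

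Without Krt12, the mean of the other 16 corneal epithelium genes was 8.03, 7.63 and 9.77 on the Krt12-high arrays of C57BL/6J, B6-albino and B6-D2 congenic. It lay between 7.14 and 7.66 on the other 9 arrays, so B6-albino replicate 1 was inside their range, below Krt12-low C57BL/6J replicate 2. The lens mean ran from 7.62 to 13.19 over the 12 arrays and the retina mean from 6.19 to 8.88, and neither ordered the arrays as Krt12 did. In bulk tissue, more cells of a type and more RNA per cell cannot be told apart.

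Some Krt12-low arrays also showed stratified epithelium genes. C57BL/6J replicate 2 had Krt12 at 6.66 but read 7.29 for Krt5, 7.05 for Dsp, 7.19 for Krt6a, 8.99 for Krt6b, 7.30 for Calml3 and 8.32 for Muc4, each the highest of the 9 arrays that were not Krt12-high. B6-Lyst replicate 2 came next among these 9 for Krt5, Dsp, Krt6a and Krt6b, at 6.66, 6.76, 6.43 and 7.46. Krt6b on this array lay 0.05 above C57BL/6J replicate 3 at 7.41. The highest Krt12 value of the 9 was on another array, B6-albino replicate 3 at 7.12. Not every gene described above peaked on C57BL/6J replicate 2. Col17a1, Anxa8, Serpinb5, Adh7, AI661453 and Mal also read highest of the 9 there, some by little. Mal read 9.20 against 9.19 on B6-albino replicate 2, and Col17a1 4.49 against 4.44 on B6-albino replicate 3. Col17a1 and Serpinb5, at values near 4 or 5, are not shown to lie above background. Apart from these genes and Krt5, Dsp, Krt6a and Calml3, no member of the 27 peaked on C57BL/6J replicate 2. Those that did not include Tmprss11a, Dsc3, Lypd2, Asprv1, Trim29, Aqp5, Lad1, Tgfbi and Esrp1. Tmprss11a read 4.49 there against a highest value of 4.80, and Aqp5 read 6.05 against 8.09. The Muc4 value of 8.32 holds for 1 probe set.

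Each of the 3 strains held 1 Krt12-high array, and the strains themselves were compared over all 12 arrays. With limma and Benjamini-Hochberg adjustment over 27022 probe sets, 94 (0.348%) differed between B6-albino and C57BL/6J at an adjusted p under 0.05, 11 (0.0407%) between B6-D2 congenic and C57BL/6J, and 23 (0.0851%) between B6-albino and B6-D2 congenic. Of these, 44, 2 and 20 were higher in the strain named first and 50, 9 and 3 lower. After 75th percentile scaling the first 2 pairs had 55 higher and 122 lower, and 11 and 28, and after quantile normalization 64 and 154, and 14 and 22. Of the 27 genes, 20 were among the probe sets tested, Krt12 included, but their test results are not read here. The rule that picked 1 high array in each strain sets both their spread within strains and the balance of their strain means. Fabp5, a fatty acid binding protein of the corneal list, had a mean in B6-albino above that in C57BL/6J by 1.57 (SE 0.49, limma adjusted p = 0.13). Without C57BL/6J replicate 2, which read 12.82 against 10.66 and 10.74 on replicates 1 and 3, limma called Fabp5 in that pair. No other setting called a member of the corneal list in that pair.

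The spread behind these tests was large for the members. The residual SD over the 12 arrays was 2.99 for Krt12, 2.47 for Krt5 and 2.16 for Dsp, against a median of 0.17 over all genes. With Krt12-high or Krt12-low as an added term it was 0.90, 1.19 and 1.19, and the choice of arrays brings both the size and the fall with it. Without the 3 Krt12-high arrays limma called 0, 6 and 6 probe sets in the 3 pairs, and 0, 5 and 6 of the calls of all 12 arrays were among them. At an unadjusted limma p under 0.05 there were 4090, 4359 and 1556, against 5246, 4818 and 2294 with all 12 arrays. Fewer arrays also left fewer residual degrees of freedom, 5 against 8. Leaving out Krt12-low B6-albino replicate 3 alone gave 0 calls in the first pair too. With the added term it called 37, 11 and 21, of which 37, 10 and 21 were also called without it. C57BL/6J arrays also differed from all others in the poly-A spike probe sets, with means of 7.20 to 8.04 against 4.98 to 5.91. The labels name no processing batch. If these values mark one, it cannot be told apart from the strain in both pairs with C57BL/6J.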

How the data were processed

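Values were used as the authors deposited them, on a log2 scale recognised from their range. The background correction, normalization and summary method were not given in the sources used here. Per the labels' protocols, column-purified RNA was DNase-treated, and biotinylated cRNA was hybridised to Affymetrix arrays. Precision is limited by how many arrays there are.

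Without 64 controls there were 45037 probe sets. A single gene symbol was listed for 34945, several for 932, and 34741 were matched to RefSeq names (GRCm38.p6). Differences within strains were described with pandas 2.3.3 in Python 3.11.15, without a filter. Strain comparisons used limma 3.58.1 in R 4.3.3 (1 mean per strain, all 12 arrays, intensity trend, two-sided) on probe sets with a mean at or above the 40th percentile. Both steps were also run on simulated arrays with planted changes and independent noise. Joint variation of genes across arrays was not simulated, and a change planted for the call rule had the same size in each strain. These runs therefore say nothing of how the steps behave where that differs. The arrays, gene lists and tests were chosen with earlier results of these data known. Named genes are Krt12, members of the 11 epithelial lists, up to 4 genes with the largest mean difference of each other list, and genes called in all strains, and other genes were chosen after their values were seen. Some members of the lists without a single-symbol probe set were not analysed here.

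The labels call the samples of a strain biological replicates. Correlations of same-numbered arrays' deviations from their strain means ran from -0.43 to 0.37, with no common direction. They do not show whether same-numbered arrays were handled together.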

Additional observations from a re-analysis of the deposited data

How the results depend on the processing

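The counts of genes called lower in all 3 strains stayed at 0 under every alternative run. The mean differences of the 27 genes, compared 243 times under other scalings, another representative probe set or without 1 Krt12-low array, moved by less than 1 SD over strains each time and none reversed, but that SD can exceed the difference itself. With the other representative probe set the mean difference of Dsc3 was 0.01 in place of 2.35, the 1 gene of the 27 to move by over 1.5 times. Alternatives for single strains and for the 27 genes were chosen after seeing the data.

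The count in all 3 strains was 8 at a fold limit of 1.5, 1 at 4, 7 against the mean of the other arrays and 27 without the strain B6-albino, and 3 to 5 without single Krt12-low arrays. The corneal epithelium count of 2 was 1 at a fold limit of 4. At 1.5 the counts for C57BL/6J, B6-albino, B6-D2 congenic and the shared genes were 846, 53, 401 and 50, and at 4 they were 10, 1, 104 and 10. Quantile normalization left 51 in C57BL/6J and 5 in B6-albino, 75th percentile scaling left 55 in C57BL/6J, and the filter left 149 in B6-D2 congenic. Against the mean of the other arrays, C57BL/6J had 285 and B6-albino 32. Without single Krt12-low arrays the counts ranged from 121 to 784 in C57BL/6J, from 57 to 128 in B6-albino and from 288 to 315 in B6-D2 congenic. Under this call such counts can only stay or rise.

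For the strain comparisons, taken as B6-albino with C57BL/6J, B6-D2 congenic with C57BL/6J, and B6-albino with B6-D2 congenic, limma called 0, 6 and 6 without the Krt12-high arrays. In the first pair the added Krt12 term left 37. In the first 2 pairs, 75th percentile scaling gave 177 and 39 and quantile normalization 218 and 36, and without a filter the second pair had 18. The replicate block left 0, 5 and 16. Whether the replicate numbers pair the arrays is not known, so these counts say nothing of the size of the differences. Leaving out single arrays gave 0 to 87, 4 to 44 and 10 to 16, with 0 in the first pair without B6-albino replicate 1 or replicate 3 (3563 and 4824 at an unadjusted p under 0.05, as were 5034 with the block). The cause of these changes was not tested, beyond the fewer arrays or genes that some settings use.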

Other observations

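Of all 45037 probe sets, 44 were higher on the Krt12-high array in both C57BL/6J and B6-D2 congenic and 5 in all 3 strains. Of the 44, 2 carried several gene symbols and are unnamed. Among the 18 other probe sets of the 27 genes, 9 were higher in both strains and 14 in B6-D2 congenic. Beside Klf5, the genes Tgfbi, Mal, Serpinb5 and Krt6a each had a probe set called in B6-D2 congenic but not in C57BL/6J. Their C57BL/6J differences were 0.96, 0.43, 0.68 and 1.10.

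The cell cycle list stood above both other B6-D2 congenic arrays on replicate 2 in 15 of 17 measured members, with 1 called, Rrm2, which encodes a ribonucleotide reductase subunit and read 7.92 against 6.06 and 6.32. In C57BL/6J 4 of the 17 and in B6-albino 11 of the 17 lay above both other arrays. Over all genes the shares were 22.3% in B6-D2 congenic, 43.8% in C57BL/6J and 28.3% in B6-albino.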
